A study of Mus musculus with 2 samples.

Results

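Lymphoid-primed progenitors are blood progenitors that still express the cytokine receptor Flt3 and have begun to transcribe genes of the lymphoid programme. They were picked out here, cell by cell, from single-cell RNA sequencing of mouse fetal liver. The filter on barcodes asked for 1000 or more genes, 2000 or more UMIs (unique molecular identifiers, each standing for 1 captured transcript) and at most 10% mitochondrial UMIs. The members were then chosen by measured UMI counts. A kept cell entered the gate with at least 2 UMIs of Flt3 and at least 2 of Ighm, the IgM heavy chain gene. It also had under 30 UMIs of Mpo and Prtn3 together, under 30 of S100a8 and S100a9 together, at most 2 of Klf1, and under 3 of Hlf, Mecom and Adgrl4 together. These limits leave out cells rich in granulocyte, erythroid and stem cell transcripts. Of 14101 kept cells, 124 met the rule, 50 in the knockout library and 74 in the control library.

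Both libraries held Lineage-negative, c-Kit-positive cells of E14.5 fetal livers of the C57BL/6 strain, a sort that enriches blood stem and progenitor cells. The knockout library came from embryos of genotype CD45.2(+) Vav1-iCre Brd9fl/fl and the control library from embryos of genotype CD45.2(+) Brd9fl/fl, so both carried the floxed Brd9 alleles. Vav1-iCre is a recombinase driven by a promoter active in blood cells. No library had the recombinase without floxed Brd9, so effects of the recombinase or its transgene and of the loss of Brd9 cannot be told apart. There was 1 library per genotype, with a number of embryos not given in the sources used here. No difference below therefore has a replicate check, no p-value is given, and every interval is a 95% interval that covers counting error only.

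Flt3 is the receptor for Flt3 ligand and marks multipotent progenitors as they lose stem cell potential. Ighm is transcribed from the unrearranged locus before a B-cell receptor is made, so its transcripts appear in cells that are not yet B cells. The interleukin-7 receptor, encoded in part by Il7r, carries the main survival and growth signal of early lymphoid cells, while Irf8 drives monocyte and dendritic cell fates that branch from overlapping progenitors. Brd9 is a bromodomain protein found in non-canonical BAF, one of the complexes that remodel chromatin.

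The gated cells carried the transcripts of lymphoid-primed progenitors in both libraries. Summed over both libraries, Il7r stood at 160.3 CPM (UMIs per 1000000 UMIs) in the gate and at 1.03 CPM in the other kept cells. Ebf1, the transcription factor that starts the B-cell programme, stood at 333.4 against 1.16 CPM, and Lsp1, an actin-binding protein of lymphocytes, at 747.8 against 15.5 CPM. Satb1, a chromatin organiser of lymphoid progenitors, and Mef2c, a transcription factor of the same stage, were also higher in the gate, at 279.1 and 1029 CPM. Rag1, which cuts the antigen receptor genes, reached 18 CPM in the gate against 0.0358 outside it. Genes of the B-cell programme were mixed: Igll1 gave 0 knockout UMIs and 2 control UMIs, and Vpreb1 0 and 3, both surrogate light chain genes, while Cd79a stood at 41 and 59.1 CPM and Cd79b at 63.7 and 94.1 CPM. Dntt, a lymphoid marker of adult marrow, gave 0 and 4. Of 6 T and NK markers, Klrd1 stood at 62.0 and 39.0 CPM and Lck at 27.9 and 21.8 CPM. Cd3g gave 0 and 2 UMIs, Zap70 1 and 2, and Il2rb 0 and 4. Cd3e, a T-cell receptor component, gave 0 in both libraries, inside and outside the gate. Of 12 lymphoid-primed markers, which include the gate genes Flt3 and Ighm, Dntt in the knockout library was the single one at 0.

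**Figure D1:**
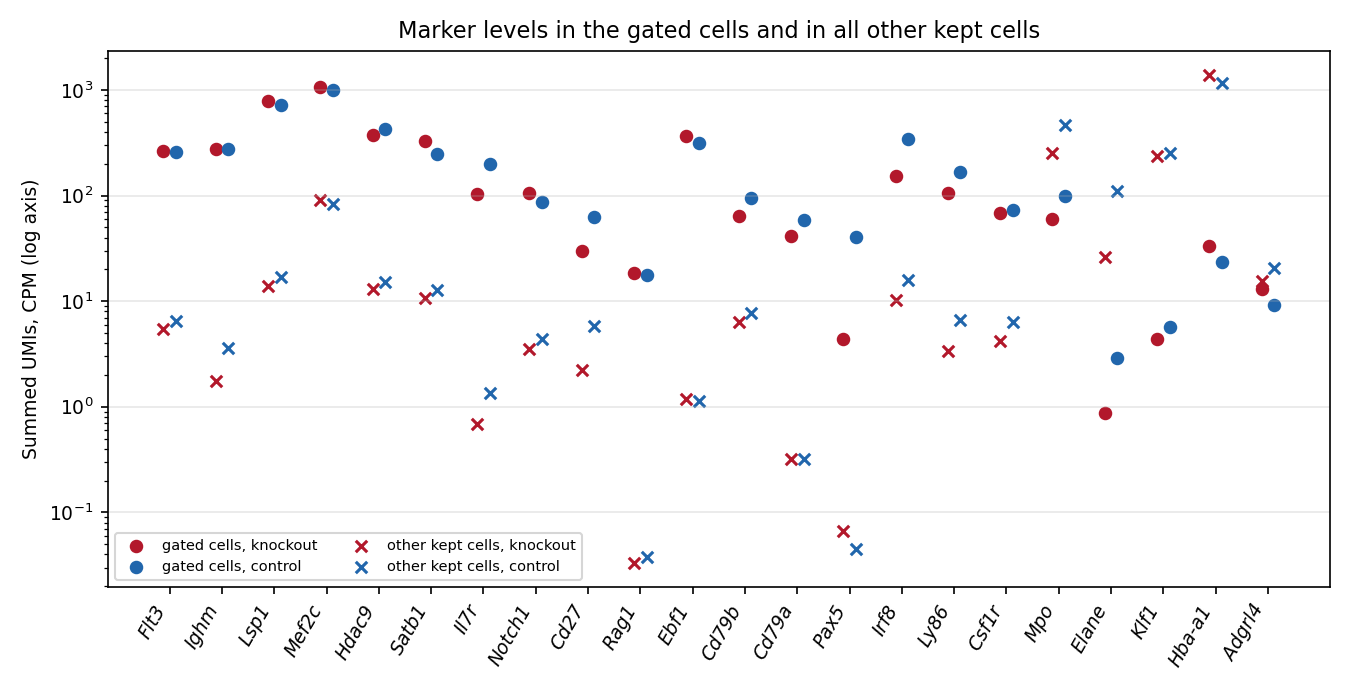
Level of 22 genes in CPM (vertical log axis) in the gated cells (circles) and in all other kept cells (crosses), knockout in red and control in blue. Il7r, Lsp1, Satb1, Ebf1 and Rag1 are far higher inside the gate than outside, Mpo, Elane, Klf1 and Hba-a1 are lower, and Flt3, Ighm, Mpo, Klf1 and Adgrl4 were used to choose the cells.

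Markers of most other cell types were low, though the rule itself limits Mpo, Prtn3, S100a8, S100a9 and Klf1. The 6 granulocyte markers summed to 281.1 and 343.7 CPM in the knockout and control gates, nearly all of it Mpo and Prtn3, with 1 and 5 UMIs of Elane. The 4 erythroid markers summed to 79.5 and 72.3 CPM. The 6 T and NK markers summed to 90.8 and 65.4 CPM. Of these, Klrd1 and Lck were higher in the gate than outside it. Pooled over the libraries, Klrd1 stood at 48.1 against 0.259 CPM and Lck at 24.2 against 0.984 CPM. Mast cell, macrophage and endothelial and stromal markers each stayed below 2.3 CPM in both libraries, and hepatocyte markers at 5.24 and 8.03 CPM. The 7 monocyte and dendritic markers had the highest sum of these sets, with 405.1 CPM against 771.6 CPM in the control, so the gate also held transcripts of that branch. In cells with more than 10 UMIs of Klf1, which should lack both gate genes, 0.856% of 2804 knockout and 1.26% of 3408 control cells had any Ighm UMI at median depths of 44439.5 and 46076 UMIs. Flt3 was found in 2.46% and 2.32% of them, and 7 and 10 such cells had at least 2 UMIs of both genes.

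Flt3 and Ighm, which chose the cells, are given as a description. Flt3 stood at 267.2 CPM in the knockout gate, with a median of 5 UMIs per cell, and at 258.2 CPM with a median of 5.5 in the control gate. Ighm stood at 278.5 and 276.0 CPM, with medians of 4.5 and 5. At the edge of the rule, 17 knockout and 20 control cells had exactly 2 UMIs of one of these genes, and 21 and 22 cells just outside had 1 UMI of one of them. In knockout and control cells Lsp1 stood at 850.8 and 763.4 CPM just outside and at 682.7 and 715.4 CPM just inside, and Satb1 at 111.2 and 104.8 CPM outside and 204.3 and 159.7 CPM inside. Irf8 changed direction at the edge, with 374.63 and 228.26 CPM outside and 163.94 and 350.45 CPM inside. Ebf1 stood at 495.47 and 250.72 CPM outside and 309.07 and 163.82 CPM inside. Il7r stood at 65.3 and 121.62 CPM outside and 77.9 and 95.4 CPM inside. The limit on Mpo and Prtn3 alone kept out 21 knockout and 51 control cells that met all other criteria, and the limit on stem cell genes 22 and 20.

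The gate held 0.714% of the knockout library's kept cells (0.531 to 0.940, exact Clopper-Pearson) and 1.04% of the control library's (0.819 to 1.31), a ratio of 0.685 (0.479 to 0.979). This ratio depended on the sex of the cells, as read from Xist and Y-linked transcripts. The gate held 38 female and 12 male knockout cells, 76.0% female, but 12 female and 62 male control cells, 16.2% female. Among all kept cells 58.4% and 22.5% were female. Within female cells the gate held 0.929% of knockout and 0.751% of control cells, a ratio of 1.24 (0.648 to 2.36). Within male cells it held 0.460% and 1.17%, a ratio of 0.395 (0.213 to 0.731). Kept cells with at least 18631 UMIs, 6617 knockout and 6779 control cells, were thinned to that depth and gated with limits lowered to match. Shallower kept cells, gated ones among them, were left out. The ratio was then 0.911 (0.618 to 1.34). With at least 3 UMIs of Flt3 and Ighm each it was 0.620 (0.402 to 0.954), and with doublets left out 0.691 (0.484 to 0.988). With at least 1 UMI of Flt3 and Ighm it was 0.750 (0.553 to 1.02), and with Mpo and Prtn3 under 5 UMIs 0.827 (0.515 to 1.33). The interval thus lay below 1 in the main gate, with at least 3 UMIs, with doublets left out and in male cells. A lower share of lymphoid-primed cells in the knockout library was not detectable in female cells, at one depth, with at least 1 UMI or with Mpo and Prtn3 under 5. Female and male cells come from different embryos, so a sex difference and a difference between embryos cannot be told apart.

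The gated cells were of like quality in both libraries, with a median of 22293.5 and 22692 UMIs, 5092 and 5128 genes, and 3.12% and 3.27% mitochondrial UMIs per cell. Their UMIs summed to 1145333 and 1743066, so that 50 CPM equals 57.3 UMIs in the knockout gate and 87.2 in the control gate. Neither Scrublet, a doublet caller, nor transcripts of both sexes marked any gated cell as a doublet. The libraries shared 16 barcodes, of which 0 were in the gate. The 3546 genes that reached 50 CPM in one or both gates were compared by the log2 ratio of their summed CPM, knockout over control. A ratio of at least 0.5 or at most -0.5, which is 1.41-fold, was called higher or lower. By this rule 136 genes (3.84%) were higher and 99 (2.79%) lower, 235 (6.63%) in all. Of all genes 54.6% lay above 0 and 45.4% below, with a median of 0.02 over all genes and 5th and 95th percentiles at -0.39 and 0.45. Genes of which 1 cell held over 10% of the UMIs in the library with the higher level were not named among the extremes.

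Brd9 itself had a ratio nearer to 0 in these cells than in the other cells of the same libraries. It gave 25 UMIs in 19 of 50 knockout cells and 58 UMIs in 38 of 74 control cells, or 21.8 CPM (14.1 to 32.2) and 33.3 CPM (25.3 to 43.0). The log2 ratio was -0.61 (-1.35 to 0.09), so a lower level in the knockout gate was not detectable at this depth. In all kept cells outside the gate Brd9 stood at 7.03 and 27.2 CPM, a log2 ratio of -1.95 (-2.03 to -1.88), which lies below the interval in the gate. It was -1.35 in cells rich in Mpo and Prtn3 and -1.59 in cells with Hlf, Mecom or Adgrl4, 2 sets defined below. Female knockout cells of the gate had 20 UMIs (23.6 CPM) and female control cells 6 (22.7 CPM), while male knockout cells had 5 (16.9 CPM) and male control cells 52 (35.2 CPM). The difference between the gate and the other cells was not tested, since all come from the same 2 libraries. Because 3' tags can map beyond the floxed exons, UMIs that remain are no measure of intact transcript. Brd9 lies on chromosome 13 from 73937811 to 73960895 in mm10. The other subunits specific to the complex, Bicral and Bicra, gave 54.1 against 38.4 CPM and 37.5 against 34.4 CPM.

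Il7r, Cd27, Trbc2 and Ccr9 were lower in the knockout gate, and are described here for their low ratios, not as members of a list. Il7r (chromosome 15, 9505788 to 9530176) gave 119 UMIs in 33 of 50 knockout cells and 344 UMIs in 56 of 74 control cells. Its level was 103.9 CPM (86.1 to 124.3) against 197.4 CPM (177.1 to 219.4), a log2 ratio of -0.93 (-1.24 to -0.62). Both knockout sexes, at 108.4 CPM in female and 91.1 in male cells, were below both control sexes, at 234.5 and 190.7. At an equal depth of 11676 UMIs per cell, an Il7r UMI was found in 51.1% of the knockout gate (36.1 to 65.9) and 68.6% of the control gate (56.4 to 79.1). Those intervals overlap, and 3 knockout and 4 control cells were too shallow to enter.

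Cd27, a receptor of the tumour necrosis factor family that appears as progenitors become lymphoid-primed, stood at 29.7 against 62.5 CPM, a log2 ratio of -1.07 (-1.68 to -0.51). It was lower within female cells (-1.30) and within male cells (-2.11, from 4 knockout UMIs). Trbc2, a constant region gene of the T-cell receptor beta locus, stood at 153.7 against 289.7 CPM (-0.92, -1.17 to -0.67), with -1.72 in female and -1.20 in male cells. Control female cells reached 563.5 CPM of Trbc2 against 240.8 in control males, so the sexes also differed within the control library. Ccr9, a chemokine receptor that guides progenitors to the thymus, stood at 49.8 against 97.0 CPM (-0.96) and was found in 13 of 50 and 34 of 74 cells.

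Cox6a2, a subunit isoform of cytochrome c oxidase, had the lowest ratio among the genes that the rule could name. It gave 33 UMIs in 17 of 50 knockout cells and 280 in 46 of 74 control cells, or 28.8 CPM (19.8 to 40.5) against 160.6 CPM (142.4 to 180.6). The log2 ratio was -2.48 (-3.05 to -1.96), with -2.40 in female and -2.58 in male cells. After thinning, a Cox6a2 UMI was found in 19.1% of the knockout gate (9.15 to 33.3) and 54.3% of the control gate (41.9 to 66.3), and these intervals do not overlap. The gene lies on chromosome 7 from 128205435 to 128206387 and was otherwise nearly silent, at 0.160 and 0.572 CPM outside the gate.

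The 12 lowest genes were completed by Tifab (-1.64), Nrp1 (-1.53), Irf8 (-1.16), Bex6 (-1.15), Pecam1 (-1.02), Il12a (-1.0), Runx2 (-0.91) and Irf5 (-0.89). The 12 highest were Hoxa7 (1.21), Clec12a (1.08), Samsn1 (0.96), Ube2c (0.95), Rasa2 (0.88), Fbxo5 (0.88), Pinx1 (0.86), Abcc1 (0.85), Scamp3 (0.84), Vasp (0.82), Znrf3 (0.80) and Rab11a (0.80). They were chosen for these ratios, so the ratios are a description. Within female cells alone and male cells alone, 10 of the 12 lowest and 11 of the 12 highest kept their direction in both. Nrp1, a co-receptor of semaphorins, and Bex6 were lower in male cells only, at -2.24 and -1.66, and gave 0.52 and 0.42 in female cells. Hoxa7, a homeobox gene of immature progenitors, gave 1.10 in male and -0.07 in female cells. The sexes are parts of the cells that chose the genes, so such a direction is in part fixed by the choice. Of the 136 genes called higher, 117 (3.3% of all genes) were also above 0 in both sexes, and of the 99 called lower, 71 (2.0% of all genes) were below 0 in both. Of 102 X-linked genes 1 (0.98%) was called higher and 3 (2.94%) lower, and 0 of the 24 genes named here are X-linked.

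**Figure D2:**
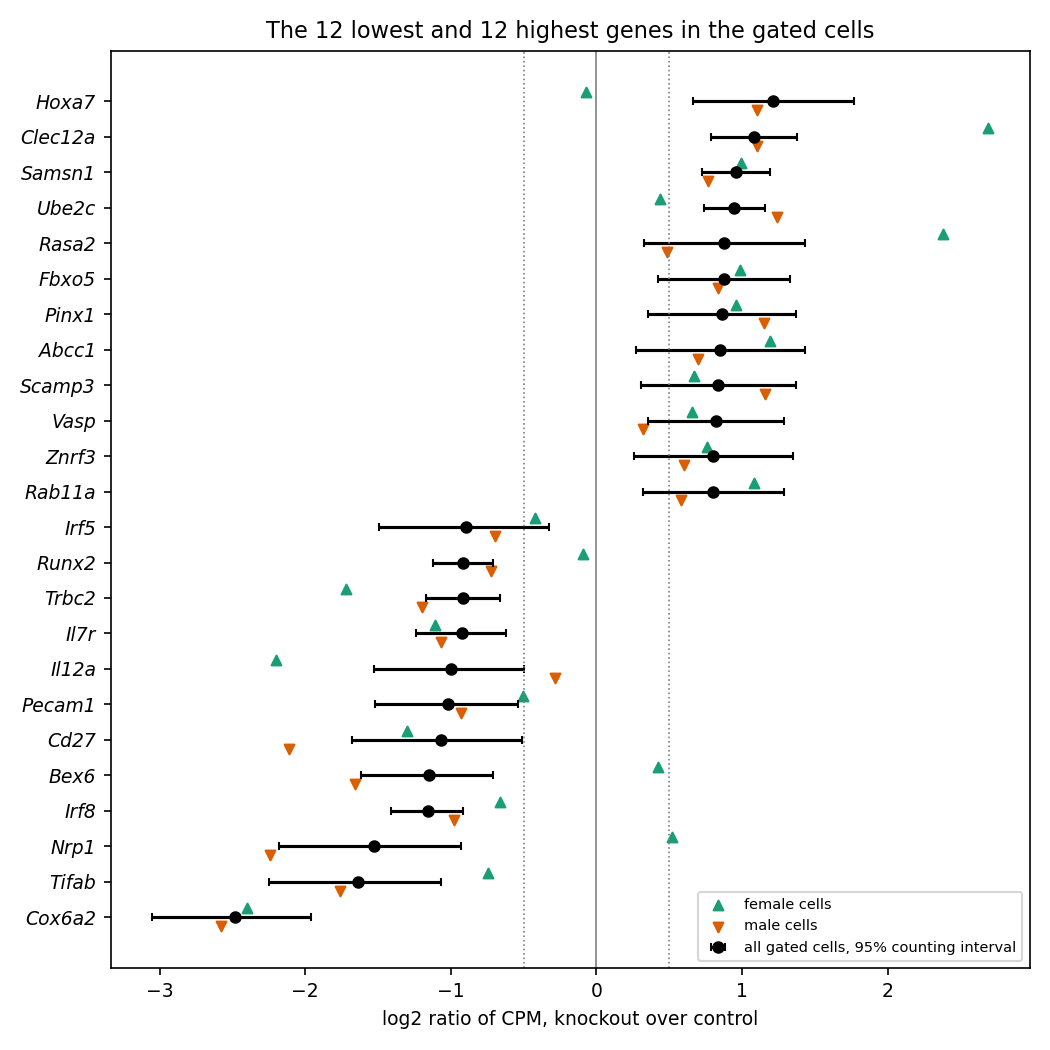
Log2 ratio of CPM, knockout over control, for the 12 lowest and 12 highest genes (rows), with the ratio over all gated cells and its 95% counting interval in black, the ratio within female cells as green triangles and within male cells as orange triangles. Dotted lines mark -0.5 and 0.5. Cox6a2, Il7r and Samsn1 have nearly the same ratio in both sexes, while Nrp1, Bex6 and Hoxa7 lie on both sides of 0.

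Samsn1 and Clec12a were the clearest of the higher genes. Samsn1, an adaptor protein of haematopoietic cells, gave 346 UMIs in 47 of 50 knockout cells and 271 in 63 of 74 control cells, or 302.1 against 155.5 CPM (log2 ratio 0.96, 0.73 to 1.19). Its 4 subsets by sex stood at 315.7 and 263.2 CPM in female and male knockout cells and at 158.9 and 154.9 CPM in the controls, so the genotypes did not overlap. Clec12a, an inhibitory C-type lectin of myeloid cells, stood at 205.2 against 97.0 CPM (1.08), with 2.69 in female cells, where the control had 8 UMIs, and 1.10 in male cells. Fbxo5, an inhibitor of the anaphase-promoting complex, gave 82.1 against 44.7 CPM with 0.99 in female and 0.84 in male cells.

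Commd10, named after its values were seen because it misses the naming rule by a narrow margin, had the highest ratio of the genes singled out here. It gave 89 UMIs in 32 of 50 knockout cells and 35 UMIs in 26 of 74 control cells, or 77.7 CPM (62.4 to 95.6) against 20.1 CPM (14.0 to 27.9). The log2 ratio was 1.95 (1.37 to 2.56), with 2.45 in female cells, where the control had 4 UMIs, and 1.61 in male cells. Its top cell held 11.2% of the knockout UMIs, where the naming rule allows 10%. After thinning, a Commd10 UMI was found in 44.7% of the knockout gate (30.2 to 59.9) and 18.6% of the control gate (10.3 to 29.7).

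Monocyte and dendritic genes were lower in the knockout gate. Of 35 listed, 15 passed the 50 CPM minimum, 14 of these were below 0 and 10 were at or below -0.5, beside 2.79% of all genes. The median was -0.62, against 0.02 for all genes. Where the mean of both libraries had to reach 50 CPM, which does not favour genes high in 1 library, 9 of 14 were at or below -0.5. All 35 genes together summed to 2432 CPM in knockout cells and 3582 CPM in control cells. The sexes differed: in male cells 15 of 15 were below 0, with a median of -0.89, and in female cells 8 were below and 7 above 0, with a median of -0.0049. The sums were 2447 CPM (knockout) and 2152 CPM (control) in female cells and 2392 and 3838 CPM in male cells, so the sum was lower in male cells and not in female cells.

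Irf8, the leading gene of that list, gave 177 UMIs in 28 of 50 knockout cells and 601 UMIs in 46 of 74 control cells, or 154.5 against 344.8 CPM (-1.16, -1.41 to -0.91). The highest control cell had 47 Irf8 UMIs and the highest knockout cell 28. At least 10 Irf8 UMIs were found in 5 of 50 knockout cells, 10.0% (3.33 to 21.8), and in 20 of 74 control cells, 27.0% (17.4 to 38.6). Among those cells Irf8 stood at 812.0 and 858.7 CPM, and among the rest at 81.5 and 90.9 CPM, a log2 ratio of -0.16. The sets were split on Irf8 itself, which limits its level within each, and the intervals of the 2 shares overlap. Tifab, a relative of the signalling adaptor TIFA, stood at 27.1 against 84.3 CPM and was still lower without the Irf8-high cells (-1.44). Runx2, a transcription factor high in plasmacytoid dendritic cells, went from -0.91 to -0.45 without them. Over all gated cells of each sex it was at -0.09 (-0.515 to 0.352) in female and -0.72 in male cells.

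Ccr2, the receptor that guides monocytes out of the marrow, had a still lower ratio but falls outside the naming rule, since 1 cell held 11% of its control UMIs. It gave 15 UMIs in 5 knockout cells and 155 UMIs in 26 control cells, or 13.1 CPM (7.33 to 21.6) against 88.9 CPM (75.5 to 104.1), a log2 ratio of -2.76 (-3.64 to -2.0). It was -2.20 in female and -4.76 in male cells, where the knockout had 1 UMI. Without the Irf8-high cells Ccr2 was at -3.61, so its ratio did not rest on them. F13a1, a monocyte gene, gave 0 UMIs in the knockout and 38 UMIs in 11 control cells. Fcer1g, the signalling chain of Fc receptors, stood at 210.4 against 157.8 CPM (0.41), which is under the 0.5 of a call. Its ratio was 1.97 in female cells, where the control had 15 UMIs, and -0.003 in male cells.

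Il7r, Cd27 and Cox6a2 were lower in each of 3 overlapping sets of cells split by branch genes. Cells with at least 3 UMIs of Ebf1, 15 knockout and 23 control cells, had Il7r at 182.9 against 324.4 CPM (-0.83, -1.29 to -0.39). In them Cd27 gave -1.06, Cox6a2 -2.28, Meis1 1.01 and Commd10 2.23. Ccr9 did not share this, at 134.8 against 129.0 CPM (0.06). Cells with at least 3 UMIs of Trbc2, 17 and 35, gave -0.79 for Il7r, -1.02 for Cd27 and -2.46 for Cox6a2. Cells with under 10 Irf8 UMIs, 45 and 54, gave -0.83, -1.39 and -2.59, with Meis1 at 0.93 and Commd10 at 2.11. Ebf1-positive cells had no Irf8 in the knockout, 0 UMIs, and 95 UMIs (180.2 CPM) in the control. Cells with at least 3 UMIs of both Irf8 and Ebf1 numbered 0 of 50, which allows a share of up to 7.11%, and 6 of 74 (8.11%, 3.03 to 16.8), so their absence from the knockout was not detectable as a difference at this cell number. Cells with at least 3 UMIs of Ebf1 made up 30% of the knockout and 31.1% of the control gate, and those with at least 3 of Trbc2 34.0% and 47.3%. In the control, 10 of 12 female cells were Trbc2-positive against 25 of 62 male cells.

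**Figure D3:**
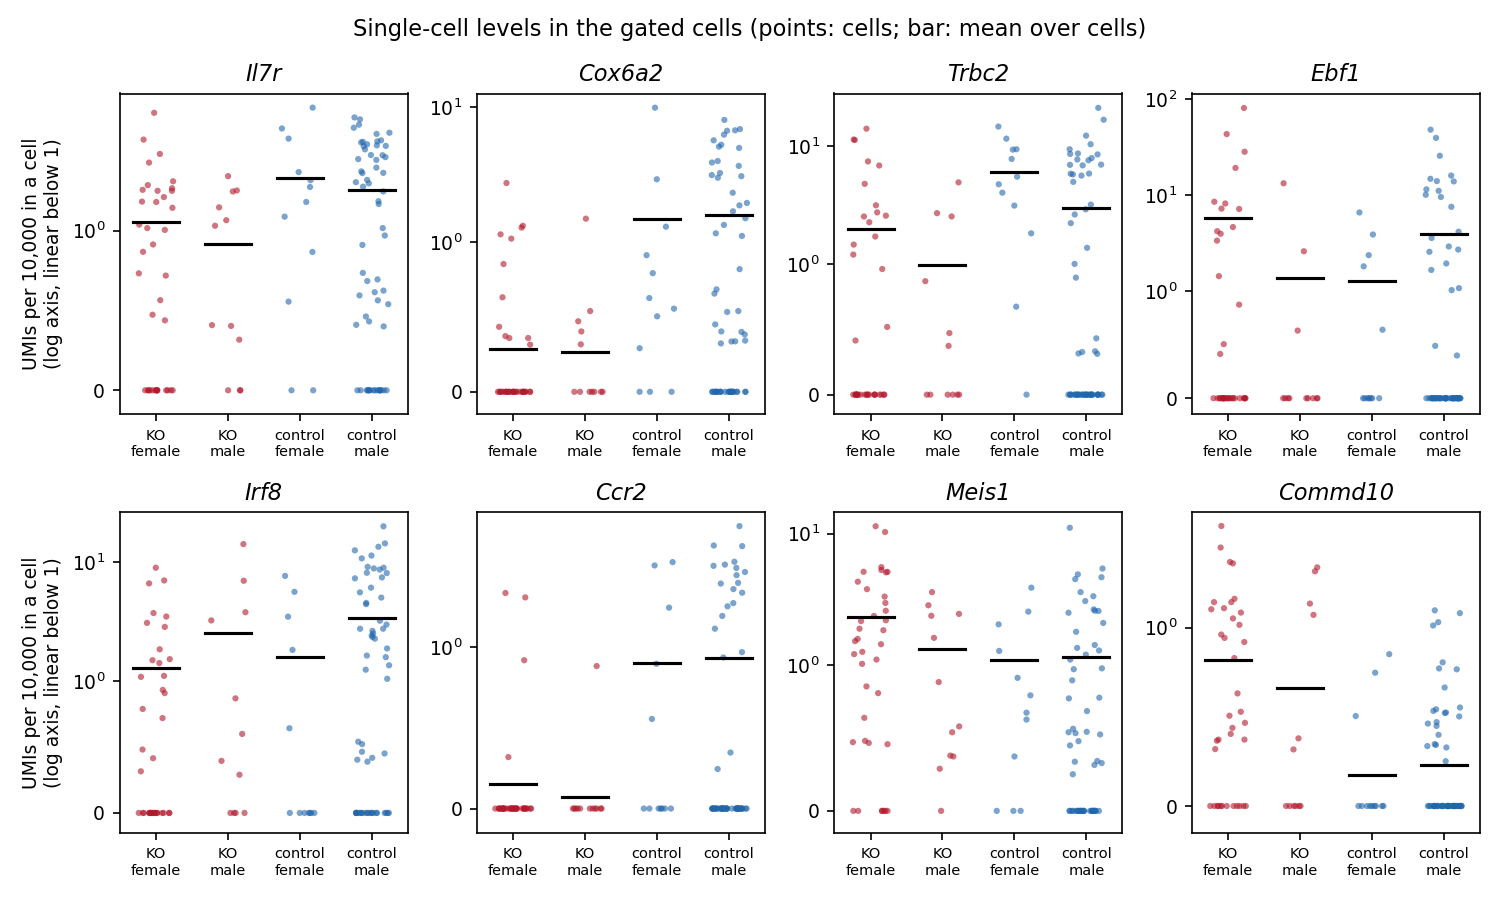
UMIs per 10000 UMIs of a cell (vertical axis, logarithmic above 1 and linear below) for 8 genes, each point 1 gated cell and each bar the mean over cells, for 38 female and 12 male knockout cells and 12 female and 62 male control cells. Il7r, Cox6a2 and Ccr2 have lower means in both knockout sexes than in either control sex and Commd10 higher ones, whereas Ebf1 is highest in knockout females and control males.

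The list of lymphoid-primed genes held members on both sides of 0. Of 37 genes on that list 28 passed the minimum, 16 were above and 12 below 0, with a median of 0.03. Of these, 1 was higher (Gimap9, 0.64) and 4 were lower, Cd27, Ccr9, Ly86 (-0.67) and Cd48 (-0.53), which is 3.57% and 14.3% of the members, beside 3.84% and 2.79% of all genes. Where the mean of both libraries had to reach 50 CPM, 3 of 26 were lower. Lsp1 stood at 791.0 against 719.4 CPM (0.14), Mef2c at 1076 against 998.2 CPM (0.11), and Satb1 at 329.2 against 246.1 CPM (0.42). Notch1, the receptor that commits cells to the T lineage, gave 0.27, and Hdac9, a histone deacetylase, -0.20. In female cells 15 were above and 13 below 0, and in male cells 9 and 19.

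Of 40 lymphoid transcription factors 24 passed, 11 above and 13 below 0, with a median of -0.06. Tox, a factor of T and innate lymphoid development, was the 1 higher, 4.17% of the members beside 3.84% of all genes. It stood at 571.9 against 316.1 CPM (0.86). Its ratio was 0.76 in male cells and 0.00 in female cells, where both libraries stood near 616 CPM. Runx2, Id2 (-0.85), Id3 (-0.69) and Zeb2 (-0.57) were the 4 lower, 16.7% of the members beside 2.79% of all genes. Id2, an inhibitor of E proteins, and Runx2 are also on the monocyte and dendritic list. Id2 was at -0.29 (-0.736 to 0.126) in male and -0.57 (-1.15 to 0.0328) in female cells, and both intervals include 0. One cell held 26.1% of its knockout UMIs. Id3 was at -2.69 in male and 1.40 in female cells. Ikzf1, which encodes Ikaros, stood at 603.3 against 551.9 CPM (0.13), Spi1, which encodes PU.1, gave -0.12 and Tcf3, which encodes the E2A proteins, 0.01. Ebf1 stood at 365.0 against 312.7 CPM (0.22), but 1 cell held 22.5% of its knockout and 1 cell 21.1% of its control UMIs. Pax5, which fixes B-cell identity, was under the minimum, with 5 UMIs in 2 knockout cells and 70 in 9 control cells.

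Immunoglobulin and pre-B receptor genes were thinly measured, with 9 of 25 above the minimum, 3 above and 6 below 0, and a median of -0.24. Bank1, a B-cell scaffold protein, was the 1 higher, at 136.2 against 51.6 CPM (1.40), with 0.33 in female and 1.01 in male cells and 22.4% of its knockout UMIs in 1 cell. Cd79a and Cd79b, the signalling chains of the B-cell receptor, were the 2 lower, at -0.53 and -0.56. The calls are 11.1% (higher) and 22.2% (lower) of the 9 members, beside 3.84% and 2.79% of all genes. Cd79a UMIs came from 10 and 11 cells, and 1 cell held 46.8% of them in the knockout. Cd79b gave 0.44 in female and -1.33 in male cells. Rag1 stood at 18.3 and 17.8 CPM, in 8 of 50 and 12 of 74 cells, but with opposite directions in female (-1.97, -3.42 to -0.56) and male cells (1.58, 0.42 to 2.68). Among 4 measured genes of V(D)J recombination and end joining 0 were called, beside 6.63% of all genes. Hmgb1 and Hmgb2, chromatin proteins that assist the Rag enzyme, gave 0.00 and 0.06.

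Of 24 genes of the Flt3 pathway and cytokine receptors, 11 passed, Flt3 itself among them. Il7r was the 1 called, 9.09% of the members beside 2.79% of all genes called lower. The others lay between Ifngr2 at -0.26 and Kit, the stem cell factor receptor, at 0.38. Jak1, a kinase that signals for the interleukin-7 receptor, gave 0.35 at 93.4 against 73.4 CPM. Csf1r, the macrophage growth factor receptor, stood at 68.1 against 72.9 CPM (-0.10), with 1.22 in female and -0.41 in male cells.

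Meis1 was the stem and multipotent gene most clearly measured as higher in the knockout gate. Of 39 listed, 38 were found and 14 passed, of which 4 were at or above 0.5, beside 3.84% of all genes, and 0 at or below -0.5. The median was 0.03. Where the mean of both libraries had to reach 50 CPM, 1 of 11 was called, Meis1, with a median of -0.02, so the other calls rest on genes that passed through the knockout alone. Meis1, a homeobox gene of stem cells (chromosome 11, 18879817 to 19018985), gave 214 UMIs in 42 of 50 knockout and 188 UMIs in 46 of 74 control cells. It stood at 186.9 CPM (162.7 to 213.6) against 107.9 CPM (93.0 to 124.4), a log2 ratio of 0.79 (0.50 to 1.08). The ratio was 1.02 in female and 0.24 (-0.31 to 0.75) in male cells. Pbx3, a partner of Hox and Meis proteins, stood at 55.9 against 21.8 CPM (1.36), with 1.70 and 0.86 in the sexes. Angpt1, a ligand of the Tie2 receptor, stood at 55.0 against 22.4 CPM (1.30), with 0.24 and 0.32, and 1 cell held 20.6% of its knockout UMIs. Hmga2 and Lin28b, fetal regulators, gave 0.02 and 0.03, and Cd34 gave 0.13. The 4 stem markers of the check, 3 of which the rule limits, summed to 21 and 11.5 CPM.

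Genes of G2 and mitosis lay mostly above 0. Of 30, 25 passed, 24 above and 1 below 0, where 54.6% of all genes were above. The median was 0.24, and 6 (24.0%) were at or above 0.5, beside 3.84% of all genes. Ube2c, the ubiquitin-conjugating enzyme of the anaphase-promoting complex, stood at 384.2 against 199.1 CPM (0.95), found in 33 of 50 and 50 of 74 cells. Kif23, a kinesin of cytokinesis, stood at 137.1 against 80.9 CPM (0.76), and Aurka, a mitotic kinase, at 84.7 against 54.5 CPM (0.64). The list's median was 0.36 in male cells, with 24 above 0, and 0.05 in female cells, with 16 above 0. Female sums were 4213 and 4244 CPM, and male sums 4592 and 3339 CPM, so female cells of both libraries were alike. Of 31 genes of S phase 26 passed, 12 above and 14 below 0, with a median of -0.04. Cdc6, a replication licensing factor, was the 1 lower (-0.58), 3.85% of the members, near the 2.79% of all genes. In S phase the sexes went opposite ways, with medians of 0.31 in female and -0.20 in male cells.

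Interferon and MHC genes were lower in part. Of 29, 16 passed, 4 above and 12 below 0, with 4 (25%) at or below -0.5, beside 2.79% of all genes, and a median of -0.14. These were Ifnar2, a chain of the type I interferon receptor (-0.63), Ifi203 (-0.63), Bst2, an antiviral membrane protein (-0.60), and Ifi27 (-0.58). Bst2 and Ifi27 were lower in both sexes, at -0.56 and -1.42 in female and -0.81 and -1.47 in male cells. Ifnar2 and Ifi203 were near 0 in female cells, at -0.02 (-0.466 to 0.443) and -0.11 (-0.522 to 0.312). In male cells they gave -0.80 and -1.81. The MHC class I gene H2-K1 gave 0.21 and its partner B2m -0.09. The list's median was 0.25 in female and -0.51 in male cells. Among 7 measured survival genes, Bad and Bcl2 were called lower, at -0.67 and -0.51, 28.6% of the members beside 2.79% of all genes. However, Bcl2 gave 0.40 in female cells, and 1 cell held 22.7% of its control UMIs. After thinning, a Bcl2 UMI was found in 44.7% of the knockout gate and 41.4% of the control gate.

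**Figure D4:**
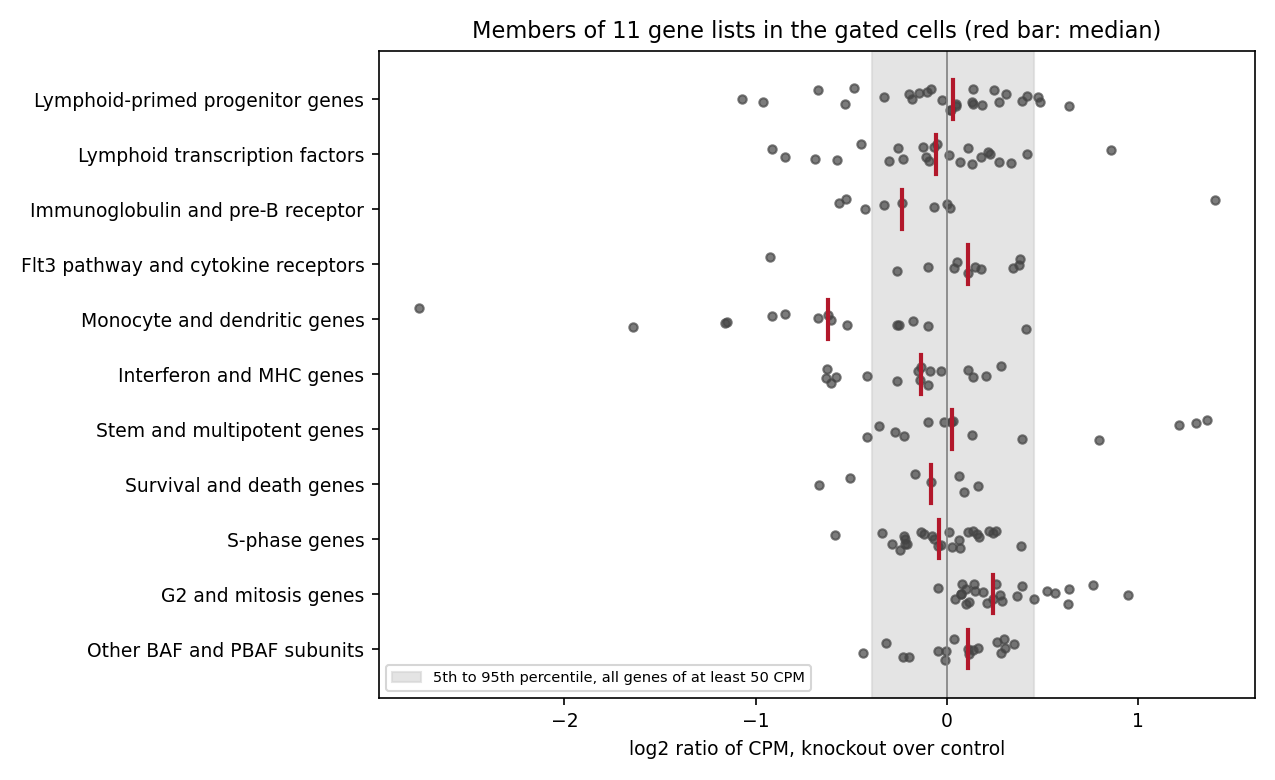
Log2 ratio of CPM, knockout over control (horizontal axis), of each measured member of 11 gene lists (rows, points), with the list's median as a red bar and the range from the 5th to the 95th percentile of all 3546 genes in grey. Most monocyte and dendritic genes lie left of the grey band, 1 cytokine receptor gene (Il7r) does, and G2 and mitosis genes lie mostly right of 0.

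Other BAF and PBAF subunits showed no call among 17 measured of 27, beside 6.63% of all genes called either way. Of the 17, 10 lay above and 7 below 0, with a median of 0.11. Smarca4, the ATPase, stood at 172.9 against 160.1 CPM (0.11). Glycolysis genes, 9 measured, and genes of G1 cyclins, kinases and inhibitors, 9 measured, also had 0 calls. With so few members, 0 calls lie near the 6.63% of all genes.

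The same ratios were read in 2 other sets of the same libraries. One, the Mpo Prtn3 gate, held cells with at least 30 UMIs of Mpo and Prtn3 together and otherwise the same limits. The other, the stem gate, held cells with at least 3 UMIs of Hlf, Mecom and Adgrl4 together and under 30 of Mpo and Prtn3. All come from the same 2 libraries, so the values are set side by side. Il7r was lower in the stem gate at 2.26 against 16.5 CPM (-2.87) and Cd27 at 22 against 81.8 CPM (-1.90). Both were also lower in the Mpo Prtn3 gate (-1.4 and -1.55) and in all kept cells outside the Flt3 Ighm gate (-0.97 and -1.38). Of the 12 lowest genes, 12 kept their direction in the Mpo Prtn3 gate, 11 in the stem gate and 12 outside. Of the 12 highest, 9, 8 and 7 did. The share of all genes that kept their direction in these sets is not given here. These counts are therefore a description, with no background to set beside them. Commd10 was higher in each, at 1.5 in the Mpo Prtn3 gate, 1.26 in the stem gate and 0.77 outside. Samsn1 and Ube2c, in contrast, gave -0.02 and -0.01 outside the gate, against 0.96 and 0.95 in it. Clec12a gave -0.32 outside against 1.08 in the gate, but was also higher in the 2 other sets. It gave 0.67 in the Mpo Prtn3 gate and 1.63 in the stem gate, there at only 5.06 against 1.63 CPM. Whether these ratios differ between cell sets beyond library effects was not tested.

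**Figure D5:**
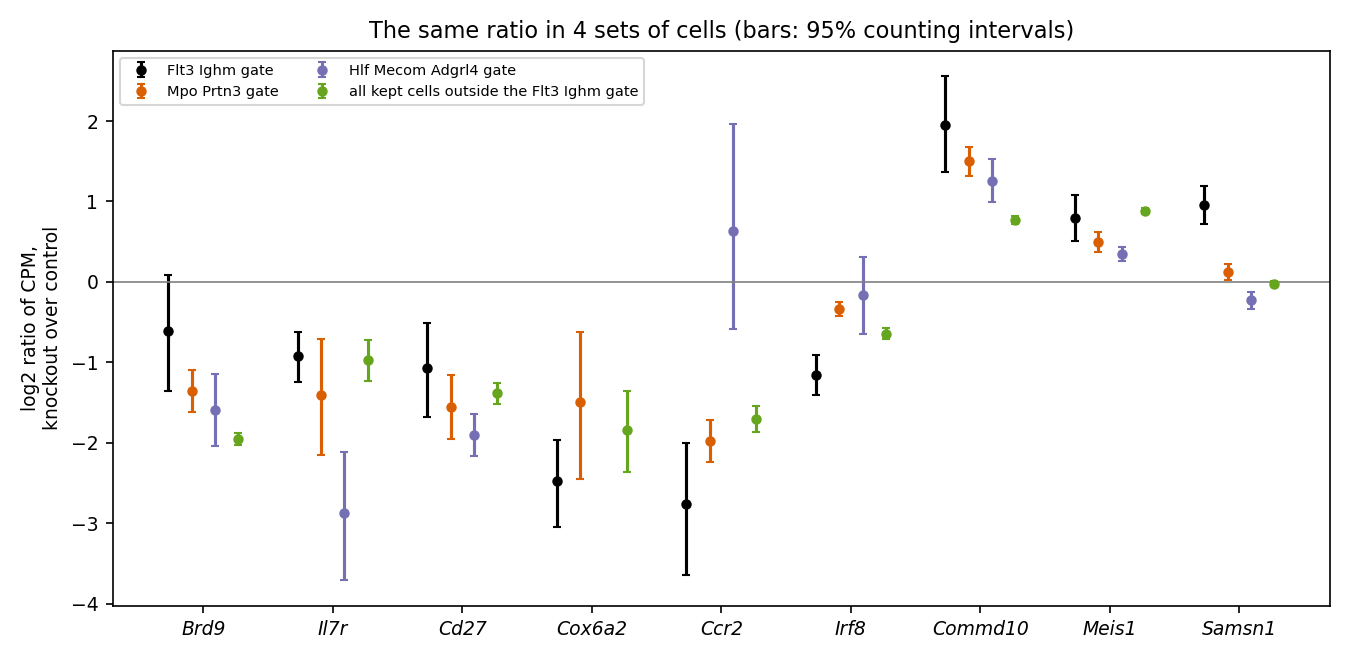
Log2 ratio of CPM, knockout over control (vertical axis), of 9 genes in the Flt3 Ighm gate, the Mpo Prtn3 gate, the stem gate and all kept cells outside the Flt3 Ighm gate, with 95% counting intervals. Brd9 is nearest to 0 in the Flt3 Ighm gate (-0.61), Commd10 and Meis1 are above 0 in all 4 sets, and Samsn1 is well above 0 only in the Flt3 Ighm gate. Cox6a2 has no point for the stem gate, where the knockout had 0 UMIs.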

How the data were processed

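The authors deposited whole-number UMI counts per gene and barcode, from 10x 3' libraries, per the labels' protocols. Cell Ranger 7.2.0 and mm10 were used, per the submitters' processing notes, with the treatment of intronic reads not given in the sources used here. UMIs were summed over the gated cells of each library and scaled to 1000000 (CPM). Log2 ratios have conditional exact binomial intervals, levels exact Poisson, shares exact Clopper-Pearson and ratios of shares log-normal intervals, at 95%. UMIs gather in few cells, so these intervals understate the spread between cells. On simulated Poisson counts of 3698 genes, the intervals held the true ratio for 95.3% of unchanged genes and for 88% of genes changed 2-fold. Those counts follow the model of the intervals, with no gathering of UMIs in few cells, so they check the calculation only.

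Cells were female with at least 3 Xist UMIs and at most 1 UMI from 4 Y-linked genes. Male cells had 1 Xist UMI or none. Named were the 12 highest and 12 lowest ratios (no gate, sex-linked marker, mitochondrial, ribosomal or predicted genes, and no gene with over 10% of its UMIs in 1 cell), the 2 highest and lowest of each list, and fixed genes. The members, the 24 lists and the rule were chosen with earlier results of these data known. Python 3.11.15, scipy 1.17.1 and scanpy 1.11.5 (Scrublet) were used. Total UMIs were 271350214 (knockout) and 292972312 (control). Alternatives covered the gate limits, doublets, sex, scaling, the weight of cells and the minimum level.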

Additional observations from a re-analysis of the deposited data

Results flagged for a closer look

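Of the genes named, 7 had counting intervals on opposite sides of 0 in the sexes, and the difference between sexes was not tested. The control had only 12 female cells and the knockout only 12 male cells. Ebf1 gave a log2 ratio of 1.96 in female and -1.23 in male cells. Id3, an inhibitor of E proteins, gave 1.40 and -2.69. Ccnd1, a G1 cyclin, gave 0.99 and -0.64, and Ifitm3, an interferon-induced membrane protein, 1.03 and -0.83. Cd34, a progenitor surface protein, gave 0.53 and -0.50. Rag1, under the 50 CPM minimum, gave -1.97 and 1.58, from 9 and 11 female and 12 and 20 male UMIs in knockout and control. Hmgb1 gave 0.25 and -0.15.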

How the results depend on the processing

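No paired analysis was possible because each genotype had 1 library. The gate's share ratio of 0.685 reversed in female cells (1.24) and moved to 0.395 in male cells. Counts of genes at or above 0.5 were 136 in the main analysis, 249 with at least 3 UMIs of Flt3 and Ighm, 363 with Mpo and Prtn3 under 5, 567 in female and 540 in male cells, 229 without cells with at least 10 Irf8 UMIs, 507 at 20 CPM, 41 at 100 CPM and 1945 with no minimum. Counts at or below -0.5 were 99, then 171, 249, 436 and 404 under the first 4 of these, 62 with at least 1 UMI of each gene, 396 at 20 CPM, 37 at 100 CPM and 1354 with no minimum. The settings without Irf8-high cells, with the mean of both libraries at 50 CPM and without X-linked genes were chosen after seeing the data. Fewer cells or lower levels widen the counting error of each ratio. Of 210 list medians under alternatives, 200 stayed within their spread. The medians that moved, each over members that reach 50 CPM within the cells used, were, in female cells, monocyte and dendritic -0.0049, interferon and MHC 0.224, S phase 0.291, G2 and mitosis 0.0482 and G1 0.671, and in male cells lymphoid-primed -0.188, stem -0.338 and glycolysis 0.272. G2 and mitosis moved to 0.415 with at least 3 UMIs and to 0.472 with Mpo and Prtn3 under 5. Genes that reversed in female cells were Bex6 (0.42), Cd79b (0.44), Hoxa7 (-0.0742), Mpo (0.41), Nrp1 (0.52), Tfrc (0.29), Tox (-0.00104) and Bcl2 (0.40). Bcl2 also reversed with Mpo and Prtn3 under 5 (0.39) and without Irf8-high cells (0.0485), and Car2 in male cells (-0.25). The cause was not tested. Cox6a2 ranged from -2.62 to -2.30, Il7r from -1.11 to -0.81 and Samsn1 from 0.77 to 1.33 over all alternatives.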

Other observations

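Of the genes with the highest level in the gate relative to the other kept cells, Tmem108 stood at 213.6 CPM pooled over the libraries against 0.912 CPM outside, Mzb1, a chaperone of antibody-secreting and plasmacytoid dendritic cells, at 154.4 against 0.819 CPM, and Tnni2, a troponin subunit, at 112.9 against 1.84 CPM. Mzb1 was found in 27 of 50 knockout and 41 of 74 control cells, with a log2 ratio of -0.33. These genes were not used by the gate and were picked after their values were seen.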
